A study of Homo sapiens with 4 samples.

Results

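The regions described here are the H4K20me1 peaks of human chromosome 6, taken in 2 sets on either side of a boundary at about 44 Mb, between the peak that ends at 44390508 and the one that starts at 44430709 (hg38). The set below the boundary has 422 peaks and the set above it 1425, of 25514 peaks listed for the whole genome. The 2 sets were chosen by the log2 differences between the groups along the chromosome, so those differences are described here without a test. The line is Kasumi-1, an acute myeloid leukemia line with the t(8;21) translocation, and all 4 libraries were CUT&Tag with an H4K20me1 antibody. The 2 libraries labelled sgNT (genotype WT) came from cells with a non-targeting guide, and the 2 labelled sgSETD8 (genotype SETD8 knockout) from cells edited with CRISPR/Cas9. The labels do not say whether the edited cells were a clone or a pool, or whether the libraries within a group are separate cultures. The table gives 1 column per group, and no header says which group comes first, so values are first-listed and second-listed. The comparison's deposited name puts treated before control. Every log2 difference below is first-listed minus second-listed, with no replicate check, and a lower level of the mark per cell cannot be told apart from fewer cells that carry it.

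H4K20me1 is the single methyl group that SETD8 (KMT5A) places on lysine 20 of histone H4. It builds up in G2 and mitosis, takes part in the compaction of mitotic chromosomes, and lies over the bodies of many transcribed genes. The short arm of chromosome 6 carries the largest cluster of replication-dependent histone genes and the major histocompatibility complex (MHC), both packed with short genes. The long arm has wider gene-poor stretches with large genes of neurons and muscle. The boundary lies within the short arm. The peak-free stretch from 59545732 to 63572322 (hg38) was taken here as the place of the centromere and the division between the arms. No centromere coordinates were used for this.

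The last peak below the boundary and the first one above it both lie in CDC5L, which encodes a core part of the spliceosome, and the next promoter with a peak above it is that of SUPT3H, a subunit of a histone acetyltransferase complex. The RefSeq promoter sequences (GRCh38.p14, windows of 300 bases that end 50 bases after the gene start) of these genes are shown first because they stand on the 2 sides of the boundary. PIM1 and NEDD9 follow as those with the lowest and highest log2 difference below the boundary, among protein-coding promoter windows overlapped by a promoter peak whose signal reached the table's median, and HMGN3 and KLHL32 as those above it. Capitals mark 4 short motifs found on either strand: the GC box GGGCGG (reverse CCGCCC), the CCAAT box CCAAT (reverse ATTGG), the RUNX core TGTGGT (reverse ACCACA) and the TATA box TATAAA (reverse TTTATA).
CDC5L: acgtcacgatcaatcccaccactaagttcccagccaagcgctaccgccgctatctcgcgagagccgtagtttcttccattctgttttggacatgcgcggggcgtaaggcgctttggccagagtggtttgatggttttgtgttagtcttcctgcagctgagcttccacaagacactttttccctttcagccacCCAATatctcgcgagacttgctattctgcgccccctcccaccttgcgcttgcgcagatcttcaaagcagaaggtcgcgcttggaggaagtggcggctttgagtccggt
SUPT3H: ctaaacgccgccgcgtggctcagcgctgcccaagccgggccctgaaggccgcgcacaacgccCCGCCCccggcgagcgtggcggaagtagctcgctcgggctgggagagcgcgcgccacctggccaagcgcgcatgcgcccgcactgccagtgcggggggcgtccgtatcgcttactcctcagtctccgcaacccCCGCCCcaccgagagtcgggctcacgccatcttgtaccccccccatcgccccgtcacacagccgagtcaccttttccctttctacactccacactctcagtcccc
PIM1: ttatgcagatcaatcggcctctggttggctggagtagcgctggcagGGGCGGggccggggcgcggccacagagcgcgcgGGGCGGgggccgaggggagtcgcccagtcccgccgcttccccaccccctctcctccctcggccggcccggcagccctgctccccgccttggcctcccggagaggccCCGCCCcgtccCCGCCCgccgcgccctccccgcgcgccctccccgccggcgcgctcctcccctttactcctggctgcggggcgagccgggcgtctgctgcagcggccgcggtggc
NEDD9: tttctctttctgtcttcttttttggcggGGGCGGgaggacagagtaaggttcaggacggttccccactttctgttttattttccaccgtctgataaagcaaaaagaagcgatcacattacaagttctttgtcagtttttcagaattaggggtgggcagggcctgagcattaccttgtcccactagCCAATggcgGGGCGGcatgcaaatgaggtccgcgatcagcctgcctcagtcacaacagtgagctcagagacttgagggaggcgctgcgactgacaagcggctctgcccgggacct
HMGN3: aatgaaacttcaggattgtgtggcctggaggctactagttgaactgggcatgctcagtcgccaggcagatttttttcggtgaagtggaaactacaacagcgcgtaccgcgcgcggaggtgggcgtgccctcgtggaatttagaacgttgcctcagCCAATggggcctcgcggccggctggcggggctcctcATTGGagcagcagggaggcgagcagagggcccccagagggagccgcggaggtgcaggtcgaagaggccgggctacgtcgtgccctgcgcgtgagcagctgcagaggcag
KLHL32: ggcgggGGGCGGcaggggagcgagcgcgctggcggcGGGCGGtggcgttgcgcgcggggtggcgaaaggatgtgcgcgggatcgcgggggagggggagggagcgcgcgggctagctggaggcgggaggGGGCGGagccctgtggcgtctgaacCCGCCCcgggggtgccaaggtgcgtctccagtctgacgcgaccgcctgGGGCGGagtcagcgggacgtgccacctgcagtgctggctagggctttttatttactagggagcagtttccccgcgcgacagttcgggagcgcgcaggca

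The windows are chr6:44387456-44387755 (plus strand) for CDC5L, chr6:45377885-45378184 (minus) for SUPT3H, chr6:37169902-37170201 (plus) for PIM1, chr6:11232619-11232918 (minus) for NEDD9, chr6:79234633-79234932 (minus) for HMGN3 and chr6:96924478-96924777 (plus) for KLHL32. KLHL32 held 5 GC boxes at a GC content of 73.7%, and PIM1 held 4 at 79.7%, so GC-rich sequence stood at both a high and a low promoter. NEDD9 and CDC5L had GC contents of 52.7% and 55%, with 13 and 21 CpG sites, and HMGN3 held 2 CCAAT boxes at 63.3%. None of the 6 windows held the RUNX core or the TATA box, which says only that those letters are not there. Of 34961 RefSeq promoter windows, 45.0% held the GC box, 34.6% the CCAAT box, 13.1% the RUNX core and 11.5% the TATA box.

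The peaks below the boundary were higher in the first-listed group and those above it were centered on no difference. The median log2 difference was 0.20 (quartiles −0.05 and 0.43) below the boundary and 0 (−0.30 and 0.26) above it, against 0.06 (−0.18 and 0.32) on the other chromosomes. Of the 422 peaks below the boundary 296 had a difference above 0 and 121 below, where 58.1% and 41% of all peaks did. Of the 1425 above it, 705 were above 0 and 712 below. Summed over all peaks below the boundary there were 61255 first-listed and 54007 second-listed reads. Log2 ratios of reads here, and their intervals, include the columns' scaling constants (0 and −0.057), so they differ from the ratio of the printed reads. The log2 ratio below the boundary was 0.24. Its exact 95% interval, which like all such intervals here covers counting error alone, ran from 0.22 to 0.26. The 115991 and 116304 reads above it gave 0.05 (0.04 to 0.06), and the other chromosomes gave 0.11. First-listed reads were the fewer above the boundary, so the positive sign of the 0.05 comes from the scaling constants. The set above the boundary was thus nearer to the rest of the genome in its median than the set below it was.

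No peak of chromosome 6 passed the authors' test. In the authors' deposited table none of the 1847 peaks had an adjusted p under 0.05, as for all 25514 peaks (0%). The unadjusted p in the authors' deposited table was under 0.05 for 105 of the 1847, against 5.06% of all peaks. Below the boundary 27 of 422 peaks (6.4%) were higher in the first-listed group at that unadjusted limit and 7 (1.66%) were lower, against 3.37% and 1.69% over the whole of the authors' deposited table. Above the boundary 29 of 1425 (2.04%) were higher and 42 (2.95%) lower by the same limit. So the set below it had more high peaks than the table as a whole and about as many low ones, and the set above it fewer high and more low ones. These counts rest on the values that chose the 2 sets, so they describe the sets and test nothing. A log2 difference of 1 or more was listed for 9 higher and 5 lower peaks below the boundary and for 9 higher and 19 lower peaks above it, against 1.54% higher and 0.909% lower, 2.45% together, in the whole table.

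**Figure D1:**
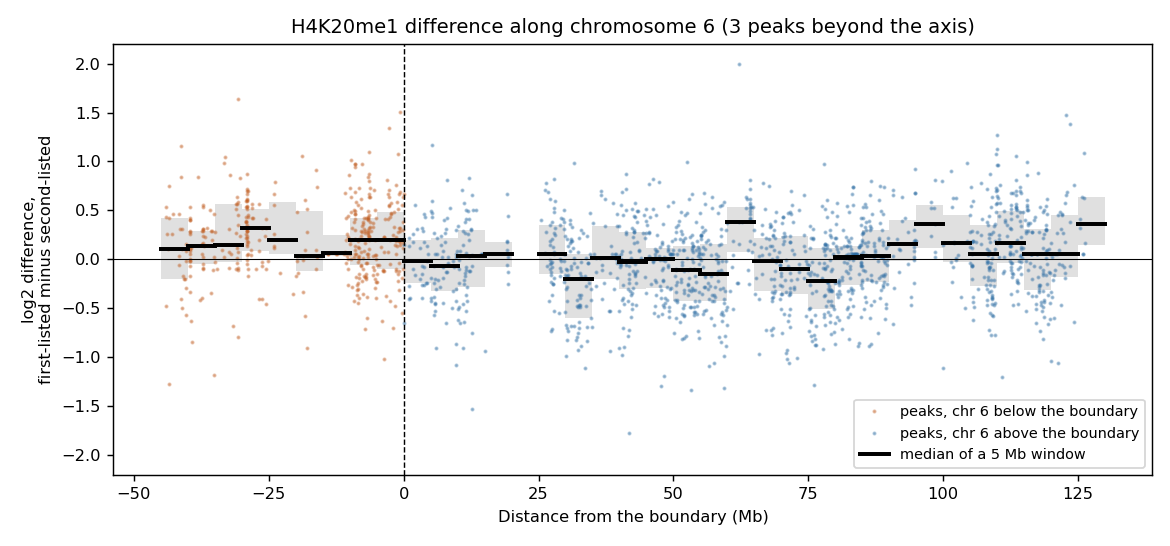
Each point is 1 peak, placed by its distance from the boundary in Mb (x axis) and its log2 difference, first-listed minus second-listed (y axis); black lines are medians and gray boxes quartiles of 5 Mb windows. The 9 windows left of the boundary have medians from 0.03 to 0.32, while those to the right lie on both sides of 0, with 0.38 at 60 to 65 Mb from the boundary.

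The boundary fell within CDC5L. Its promoter peak (44387543 to 44390508) held 313 first-listed and 205 second-listed reads, a log2 difference of 0.67 (exact interval 0.41 to 0.93). The peak in its intron 14 of 15 (44430709 to 44431330), 40.2 kb further on, held 38 and 62 reads, a difference of −0.65 (−1.27 to −0.04). The 2 intervals do not overlap, and they chose the boundary, so this describes the place and tests nothing.

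On the near side, HSP90AB1, a cytosolic chaperone, held 304 and 243 reads at its promoter (log2 difference 0.38, interval 0.13 to 0.63), and NFKBIE, an inhibitor of NF-κB, 247 and 237 (0.12, −0.15 to 0.38). An intron of TMEM151B gave 67 and 62 reads (0.17, −0.35 to 0.69). On the far side the peaks were thinner: SUPT3H had 35 and 44 reads at its promoter (−0.27, −0.96 to 0.40), RUNX2, the bone-forming relative of RUNX1, 88 and 83 (0.14, −0.31 to 0.59), and an intron of ENPP4, an ectonucleotidase, 78 and 72 (0.18, −0.31 to 0.66). RUNX2 had 3 further peaks, in introns, at −0.40, 0.22 and −0.39, which put its mean at −0.11. The intervals of all these far-side peaks include 0. Peaks also thinned in number: 25 started in the last 1 Mb before the boundary, 19 of them above 0, and 3 in the first 1 Mb after it. With so few peaks beyond it, the exact place of the change could not be set from these data, and boundaries at 40 or 48 Mb gave the same gap to within 0.01.

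The 2 sets differed in what their peaks cover. This property was not in the rule for the boundary, but it went with the log2 difference along the chromosome, as given below. The makeup is thus not independent of the choice of boundary. Below it 43.8% of peaks lay in introns (Wilson 95% interval 39.2 to 48.6), 35.5% in promoters of up to 3 kb (31.1 to 40.2) and 13.0% in distal intergenic sequence (10.2 to 16.6). Above it the shares were 36.1% (33.6 to 38.6), 18.5% (16.5 to 20.6) and 40.8% (38.2 to 43.3), so that the intervals for promoters and for intergenic peaks were far apart. The other chromosomes had 36.2%, 35.2% and 21.9%, so the promoter share was close to theirs below the boundary and lower above it, and the intergenic share was lower than theirs below it and higher above it. Per Mb of sequence, intergenic peaks numbered 1.24 below and 4.60 above the boundary, promoter peaks 3.38 and 2.08, and intron peaks 4.17 and 4.07. Most of the extra intergenic peaks were remote: 476 of the 1425 peaks above the boundary (33.4%) lay 50 kb or more from the nearest gene start, against 6.16% below it and 14.8% elsewhere. Peaks next to each other can share their source, which these intervals do not cover.

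Peaks below the boundary were also deeper. Their median was 96.5 first-listed and 94 second-listed reads, against 57 and 62 above it and 73 in each group on the other chromosomes. Median widths were 1089 and 1007 bp, close to the 1102 bp elsewhere. Introns had medians of 116 first-listed reads below and 60.5 above the boundary, promoters 99.5 and 91, and intergenic peaks 49 and 48. First introns below the boundary stood at 194 first-listed and 172 second-listed reads, and many of these peaks lay in JARID2 and ZFAND3.

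Class by class, the log2 difference separated the sets least at promoters. Promoter medians were 0.135 below and 0.08 above the boundary, intron medians 0.27 and 0.055, and distal intergenic medians 0.06 and −0.12. On the other chromosomes they were 0.09, 0.10 and 0. Promoters above the boundary thus had a median close to that elsewhere, the intergenic peaks there a lower one, and introns below the boundary a higher one. Those introns include most of the 38 peaks of JARID2 and the 24 of ZFAND3, and their median without these genes was not computed. Of the 42 low peaks above the boundary that the authors' deposited table gives an unadjusted p under 0.05, 30 (71.4%) were distal intergenic and 3 (7.14%) lay in promoters. Of the 29 that were higher in the authors' deposited table, 15 (51.7%) were intronic, 8 (27.6%) in promoters and 1 (3.45%) intergenic. Among all peaks above the boundary 40.8% were distal intergenic, 36.1% intronic and 18.5% in promoters. The calls rest on the values that chose the sets.

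**Figure D2:**
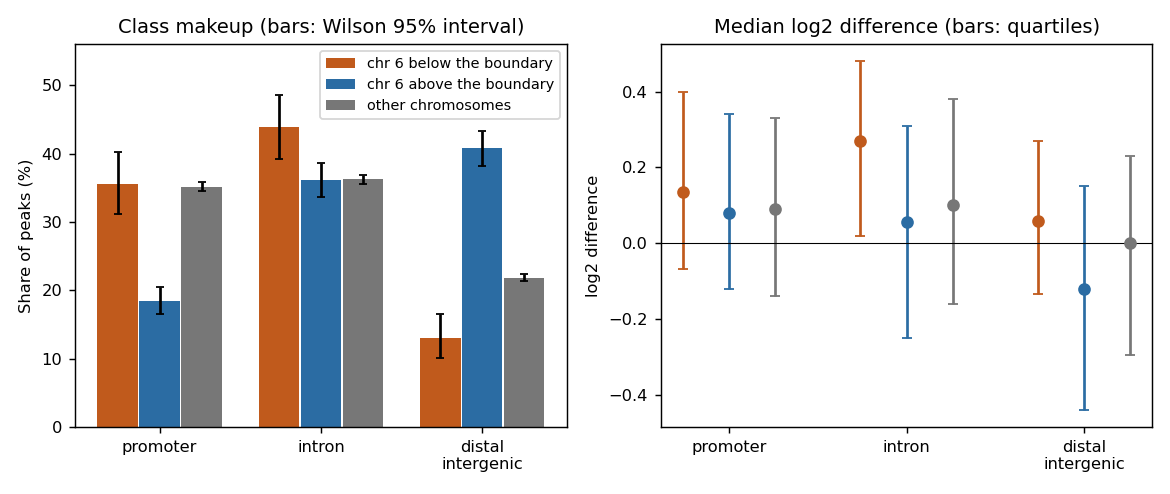
Left, the share of peaks (%, y axis) in promoters, introns and distal intergenic sequence for chromosome 6 below and above the boundary and for the other chromosomes, with Wilson 95% intervals. Right, the median log2 difference of the same peaks with quartiles: intergenic peaks above the boundary have the lowest median, −0.12, and introns below it the highest, 0.27.

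The gap between the sets varied among peaks of like class and signal. Peaks were put into 8 groups by class (promoter, intron, distal intergenic, other) and by signal below or at and above the table's median. In 7 of the 8 the set below the boundary had the higher median, by 0.025 (deep promoters) to 0.42 (deep peaks of other classes, 18 and 28 peaks). It was wider than 0.20 also in weak introns (0.27, 55 and 303 peaks) and deep distal intergenic peaks (0.28, 15 and 130 peaks). The exception was the weak peaks of other classes (14 and 39 peaks). Weighted over the 8 groups to the makeup below the boundary, the gap was 0.13 in place of 0.20. When all peaks of the table were cut into 4 equal classes of signal, the medians were 0.06 and −0.02 in the lowest class and 0.28 and 0.145 in the highest, against 0.16 for the highest elsewhere. Makeup and depth therefore moved with the difference, and their part in what remains was not tested.

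**Figure D3:**
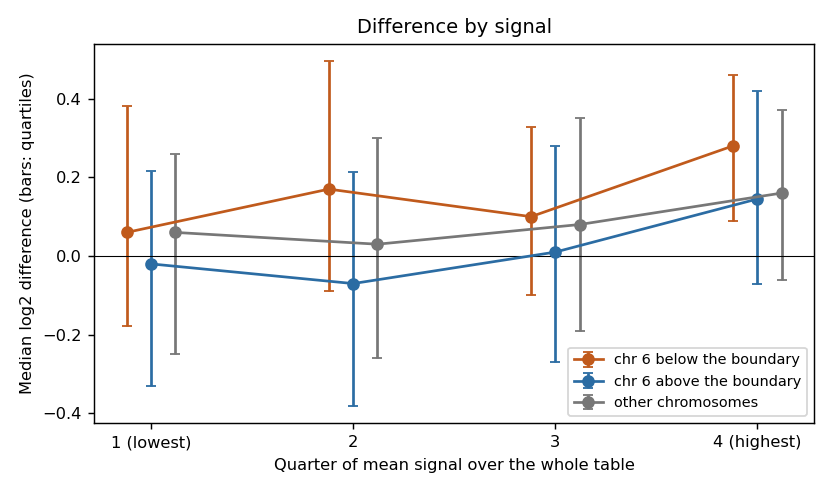
Median log2 difference (y axis, bars are quartiles) of peaks in 4 equal classes of mean signal over the whole table (x axis), for both sets of chromosome 6 and the other chromosomes. Chromosome 6 below the boundary lies above the other set in each class, with 0.28 against 0.145 in the highest, and the quartile bars overlap throughout.

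Along the chromosome, the set above the boundary was not of 1 level. In windows of 5 Mb with at least 20 peaks, all 7 medians below the boundary were above 0 (0.07 to 0.32), while 9 of 22 above it were below 0 (−0.22 to 0.38). Of 400 such windows on other chromosomes 112 (28%) were below 0, with a range of −0.35 to 0.50. From the centromere to 60 Mb beyond the boundary the median of 507 peaks was −0.05, and from 65 to 90 Mb beyond it that of 380 peaks was −0.05 as well. Between them stood a window of 33 peaks with a median of 0.38, 26 of them above 0. From 90 Mb beyond the boundary to the end of the long arm, 361 peaks had a median of 0.11, with 221 above 0 and 140 below. These inner limits were chosen after the values were seen. The short-arm part above the boundary (144 peaks, median −0.03) resembled the near long arm in its median. The last part, at 0.11, lay between the other chromosomes (0.06) and the peaks below the boundary (0.20), nearer to the other chromosomes.

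Windows with more intergenic peaks had lower medians on the whole. Over the 29 windows of chromosome 6 with at least 20 peaks, Spearman's rho between the median log2 difference and the share of distal intergenic peaks was −0.90, and Pearson's r was −0.81. Over the 22 windows above the boundary alone, rho was −0.82. Over 400 windows of the other chromosomes it was −0.37. The windows share the same libraries, and their median signal also went with the difference (rho 0.68 on chromosome 6), so these values describe the windows and nothing more. The window from 75 to 80 Mb beyond the boundary, which holds peaks of TRDN and NKAIN2, had 59.6% intergenic peaks and the lowest median, −0.22. The window with the 0.38 median had 3.03%.

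**Figure D4:**
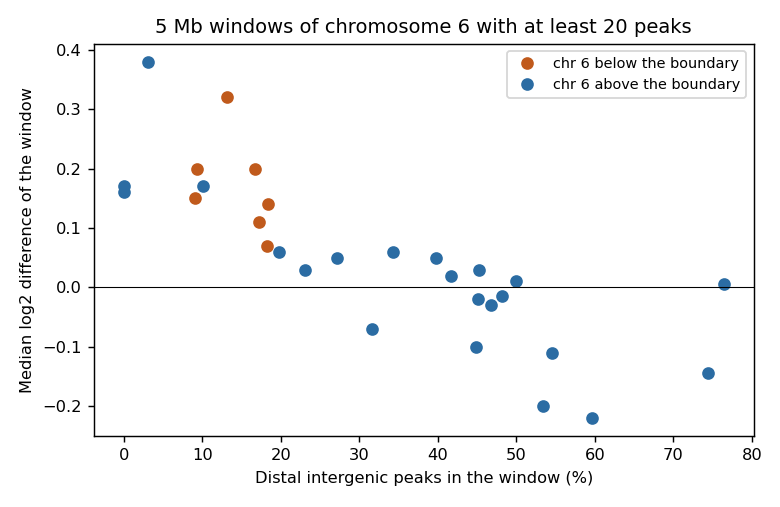
Each point is a 5 Mb window of chromosome 6 with at least 20 peaks, placed by the share of its peaks that are distal intergenic (x axis, %) and its median log2 difference (y axis). The 7 windows below the boundary all lie above 0 toward the left, and the lowest window, at −0.22, has 59.6% intergenic peaks.

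Gene-rich and gene-poor DNA on the 2 sides also differed in how many genes carried a peak. Of 539 protein-coding genes below the boundary 141 (26.2%, Wilson interval 22.6 to 30.0) had a peak in promoter or body, and of 510 above it 255 (50%, 45.7 to 54.3), against 37.4% on other chromosomes. Genes below the boundary were shorter, with a median length of 12.5 kb against 46.0 kb above it and 24.2 kb elsewhere, and they stood at 12.1 against 4.04 per Mb. The same held at promoter windows alone, all of which have the same length, though a gene can have more than 1 window. A peak overlapped 14.9% of 643 coding promoter windows below (12.4 to 17.9) and 26.3% of 669 above (23.1 to 29.8), against 20.1% elsewhere. Windows with a peak had median GC contents of 63.8% and 64.7%, and those without one 58.3% and 57.7%. The GC box was present in 69.8% of windows with a peak below the boundary and 75% above it, and in 50.3% and 48.3% of those without one. The RUNX core was present in 4.17% and 7.39% of windows with a peak and in 14.1% and 10.5% of those without one, against 9.64% and 11.7% on the other chromosomes. The TATA box was present in 12.5% and 6.82% of windows with a peak and 15.4% and 15.2% of those without, against 4.13% and 10.5% elsewhere. Windows with a peak numbered only 96 below and 176 above the boundary, so the low motif shares rest on few windows.

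The histone cluster and the MHC held many of the genes without a peak: outside both, 42.0% of 307 coding genes below the boundary had one. That is more than the 37.4% on other chromosomes and less than the 50% above the boundary. The share of promoter windows with a peak was not computed outside these regions. In the histone cluster, whose first peak starts at 26123885 and last ends at 28398271, 9 of 81 coding genes had a peak, and of 55 replication-dependent histone genes of chromosome 6 only 3 did. H2BC5 held 145 and 99 reads (log2 difference 0.61, exact interval 0.23 to 0.99), H2BC4 94 and 146 (−0.58, −0.97 to −0.19) and H2AC7 110 and 107 (0.10, −0.30 to 0.49). These 3 neighbours thus went in both directions. Histone genes are near-identical copies, and how reads that fit several were placed is not given in the sources used here. In the MHC 6 peaks were listed (30450686 to 33418575) among 151 coding genes, and 5 of them, at HLA-E and HSPA1B among others, stood at the lowest step of both columns, 1 read in each. No member of the MHC class I list (13 genes) or class II list (13 genes) had a value above that step. The remaining MHC peak, intergenic near HLA-B, held 1 and 11 reads. In all 24 peaks of chromosome 6 stood at the lowest step: 5 in the MHC, 5 beside the centromere, 9 in and near THEMIS and PTPRK, 3 in LPA and 2 in FAM120B. They enter the peak counts above with a difference of 0.06 and were left out of the values per gene below. The file also lists 37 peaks on alternative contigs of chromosome 6, which hold copies of MHC genes, THEMIS, PTPRK and FAM120B among others, and 30 of these were at the lowest step too. Those contigs are not part of either set.

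Per gene, the mean over a gene's peaks was below 0 for 40 of 150 genes below the boundary (26.7%, median 0.17) and for 114 of 286 above it (39.9%, median 0.06), against 3174 of 8313 over the table (38.2%, median 0.10).

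Below the boundary 2 genes held a large share of the peaks. JARID2, a cofactor of Polycomb repressive complex 2, carried 38 peaks from 15245429 to 15519937, and 34 of them were above 0. Its peaks summed to 13551 first-listed and 11165 second-listed reads (log2 ratio 0.34, exact interval 0.30 to 0.37), and single peaks ran from −0.17 to 0.87. The highest lay in intron 1 of 17 (15299244 to 15300844) with 468 and 266 reads, and the deepest, also in intron 1, held 936 and 824 (0.24, 0.10 to 0.38). ZFAND3, a zinc finger protein gene, carried 24 peaks, all above 0, from 0.02 to 1.10, with 5578 and 4272 reads in sum (0.44, 0.38 to 0.50). Its highest peak, in intron 2 of 5, held 425 and 206 reads (1.10, 0.86 to 1.35). Without these 2 genes the median below the boundary was 0.14. Peaks of 1 gene share their source and are not replicates.

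CDYL, a chromodomain corepressor, had 19 peaks with a mean of 0.10 (12 above 0 and 6 below), and RREB1, a zinc finger factor of RAS signalling, 14 with a mean of 0.17 (11 and 3). Above the boundary LAMA2, a laminin chain of muscle, had 22 peaks with a mean of 0.04, 12 above 0 and 10 below. ARID1B, a subunit of the BAF remodeller, had 21 with a mean of 0.15. NKAIN2, a membrane protein gene of neurons, had 19 with a mean of −0.13, 9 above 0 and 10 below. All 4 of these genes below the boundary had means above 0, and of the 3 described above it LAMA2 and ARID1B had means above 0 and NKAIN2 a mean below 0.

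**Figure D5:**
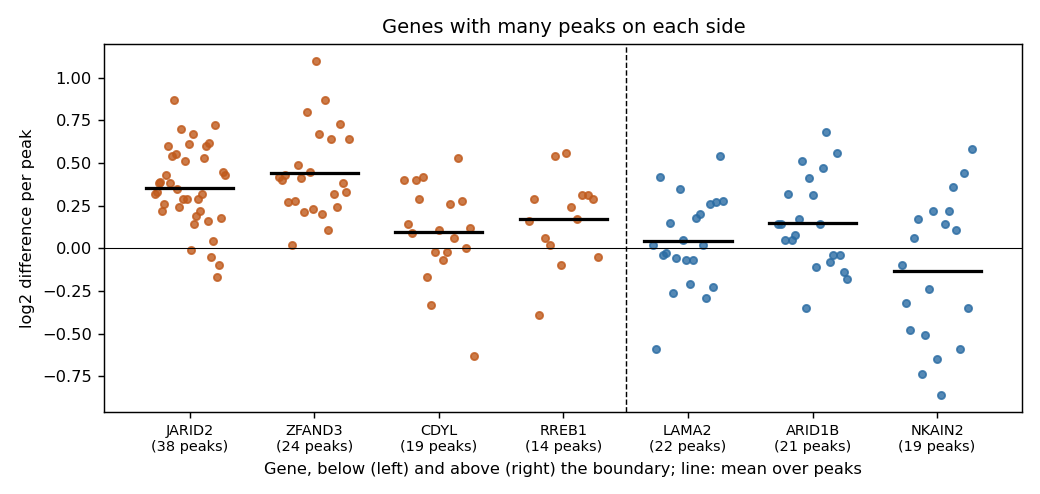
Each point is 1 peak of 4 genes with many peaks below the boundary (left) and 3 above it (right), in order along the chromosome within each gene, with its log2 difference on the y axis and the mean over peaks as a line. All 24 ZFAND3 peaks are above 0, and 10 of 19 NKAIN2 peaks are below it.

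The peaks with the widest differences are given next by size, among peaks in genes whose signal reached the table's median. Below the boundary the highest was in intron 2 of 13 of RANBP9, a scaffold of a ubiquitin ligase complex (13674499 to 13675190), with 126 and 42 reads (log2 difference 1.64, exact interval 1.13 to 2.18). In the authors' deposited table its adjusted p was 0.433. The lowest was in the same gene, in intron 1 (13702847 to 13703452), with 80 and 144 reads (−0.79, −1.20 to −0.39), so RANBP9 held both ends. BPHL, a serine hydrolase gene, gave 99 and 46 reads at its promoter (1.16, 0.64 to 1.70), and NEDD9, an adhesion scaffold, 228 and 114 (1.05, 0.73 to 1.39). PPARD, a nuclear receptor for fatty acids, gave 156 and 83 in an intron (0.97, 0.57 to 1.37). At the low end PIM1, a serine/threonine kinase that acts below cytokine receptors, held 68 and 116 reads at its promoter (−0.71, −1.17 to −0.27). An intron of CDYL held 75 and 121 (−0.63, −1.07 to −0.21), the promoter of PRP4K, a splicing kinase, 130 and 200 (−0.57, −0.89 to −0.24), and exon 19 of 24 of TMEM63B 113 and 172 (−0.55, −0.90 to −0.20). In the authors' deposited table the adjusted p of these 5 low peaks, that of RANBP9 included, ran from 0.966 to 0.998.

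Of the 6 genes named at the high end above the boundary, 5 lay near the end of the long arm. CRYBG1 lay further in: its exon 4 of 22 (106519133 to 106521259), in the window with the 0.38 median, held 169 and 44 reads (log2 difference 2.00, exact interval 1.51 to 2.51). In the authors' deposited table its adjusted p, 0.0704, is the lowest of all peaks. AFDN, which encodes an adherens junction protein, held 198 and 79 reads in intron 1 (167832100 to 167833429; log2 difference 1.38, exact interval 1.00 to 1.78). IPCEF1 held 320 and 138 in intron 1 (1.27, 0.98 to 1.57). PSMB1, a proteasome subunit, held 164 and 80 in exon 5 of 6 (1.09, 0.70 to 1.497), and SNX9, a sorting nexin of endocytosis, 350 and 174 in intron 3 (1.06, 0.80 to 1.34). IGF2R, the receptor that clears insulin-like growth factor 2, held 193 and 101 in intron 1 (0.99, 0.64 to 1.35). The nearest gene start listed for that peak is that of the antisense gene AIRN, 17189 bp away, and the counting does not separate strands. The 5 genes from AFDN to IGF2R all lie in the last part of the long arm, with its median of 0.11.

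The low end came from the middle of the long arm and from the short arm. MLIP, a lamin-interacting protein of muscle, held 54 and 118 reads in intron 9 of 11 (54181515 to 54182385; log2 difference −1.08, exact interval −1.56 to −0.59). CDC40, a splicing factor, held 103 and 210 at its promoter (−0.97, −1.33 to −0.62), and EPB41L2, of the band 4.1 family of the membrane skeleton, 95 and 179 in intron 1 (−0.86, −1.23 to −0.49). TRDN, triadin of the muscle calcium release complex, held 55 and 97 (−0.76, −1.27 to −0.27), KIAA1586 54 and 94 (−0.75, −1.25 to −0.24) and NKAIN2 81 and 141 (−0.74, −1.16 to −0.34). In the authors' deposited table their adjusted p ran from 0.878 to 0.991. Of the promoters shown by sequence, HMGN3, a nucleosome-binding protein gene, held 87 and 146 reads (−0.69) and KLHL32, of the kelch family, 96 and 50 (0.99, the same as IGF2R).

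In the high window of 33 peaks, FOXO3 held more than any other gene and most of the 4992 first-listed and 3875 second-listed reads. FOXO3, a transcription factor of stress resistance, carried 11 peaks, all above 0, with 2807 and 1985 reads in sum (log2 ratio 0.56, exact interval 0.47 to 0.64). SEC63, of the protein translocation channel, had 181 and 122 reads over 2 peaks (0.63, 0.29 to 0.97), and SESN1, a stress-induced sestrin, 341 and 290 (0.29, 0.06 to 0.52). PREP (278 and 316 reads) and ATG5 (77 and 95), an autophagy factor, lay below 0 with intervals that include 0. Genes of this window other than FOXO3 and CRYBG1 were named after their values were seen.

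Gene lists are described by the mean over each gene's peaks, beside medians of 0.17 for all measured genes below the boundary and 0.06 above it. Some genes, such as E2F3, CCND3 and FOXO3, stand in more than 1 list. Of the cell cycle and replication genes below it 12 of 22 were measured, 9 above 0 and 3 below (median 0.27), and of those above it 12 of 14, 5 above 0 and 7 below (median −0.10). Among the first group E2F3, an activator of S phase genes, held 534 and 377 reads in its deepest peak (log2 difference 0.56, exact interval 0.37 to 0.75). CCND3, cyclin D3, held 294 and 227 (0.43, 0.18 to 0.69). Above the boundary FBXO5, an inhibitor of the anaphase-promoting complex, held 282 and 310 reads (−0.08, −0.32 to 0.16) and CDK19, a Mediator kinase, 249 and 287 (−0.15, −0.40 to 0.10). MCM3, of the replicative helicase, had 193 and 283 reads over 2 peaks (−0.50, −0.77 to −0.23) and was named after its value was seen. With peaks of at least median signal only, 4 of 8 genes were above 0 below the boundary (median 0.1375) and 4 of 12 above it (median −0.10).

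Regulators of blood cells had 7 of 8 measured genes above 0 below the boundary (median 0.30, of 19 listed) and 8 of 13 above it (median 0.19, of 22). With all peaks given to the nearest gene, 8 of 15 were above 0 on the far side, and the median there was 0.063. TFEB, the master factor of lysosome genes, had the highest mean, 0.81 over 4 peaks with 432 and 273 reads, and PIM1 the lowest. MYB, which keeps progenitors dividing, had 1 peak with 181 and 230 reads (log2 ratio −0.29, exact interval −0.58 to −0.0014). TFEB and MYB were named after their values were seen. Chromatin factors had 3 of 4 measured genes above 0 below the boundary (median 0.24, of 14 listed) and 7 of 10 above it (median 0.14, of 16). ARID1B held 613 and 616 reads at its promoter (0.05, −0.11 to 0.21), and QKI, an RNA-binding regulator of splicing, 471 and 385 (0.35, 0.15 to 0.55). Genes linked to p53 had 3 of 3 above 0 below the boundary (of 5 listed) and 3 of 5 above it (of 9), with PTP4A1, a phosphatase next to the centromere, at 372 and 243 reads (0.67, 0.43 to 0.91).

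Genes of mitochondrial and related proteins had 6 of 8 measured members above 0 below the boundary (median 0.28, of 24 listed) and 8 of 15 above it (median 0.01, of 26). Among peaks whose signal reached the median these were 4 of 4 (median 0.335) and 5 of 8 (median 0.05). MTCH1, an outer membrane insertase, held 280 and 274 reads (log2 difference 0.09, exact interval −0.16 to 0.33), CYB5R4 322 and 264 (0.34, 0.10 to 0.58) and MRPL18, of the mitochondrial ribosome, 221 and 332 (−0.53, −0.78 to −0.28). A loose list of neuronal, muscle and transporter genes had 6 of 9 above 0 (median 0.06) and 10 of 18 (median 0.01), and genes of the far end of the long arm 13 of 15 (median 0.20). Of the 7 butyrophilin genes, BTN2A1 alone had a peak, with 38 and 74 reads (−0.90, −1.51 to −0.32).

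At promoters, chromosome 6 above the boundary had a higher median than the 3 other stretches with low values. Chromosome 2 up to 90 Mb, chromosome 9 from 40 Mb and chromosome 17 from 25 Mb had medians of −0.19, −0.16 and −0.18, and their promoters had −0.19, −0.18 and −0.22. The promoters of chromosome 6 above the boundary stood at 0.08, and its distal intergenic peaks at −0.12 against −0.28, −0.19 and −0.24 there. In those stretches promoters and intergenic peaks both had medians below 0, whereas on chromosome 6 above the boundary only the intergenic peaks did. From 90 Mb beyond the boundary the intergenic median was 0.02. Intergenic peaks lay below promoters on the other chromosomes as well, at 0 and 0.09. Where 0 falls depends on the scaling between the columns. The stretches compared here were picked for their values, and the contrast was not tested.

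Of 7 genes known for this line (CD34, KIT, RUNX1, RUNX1T1, MPO, SPI1 and CEBPA) 5 carried a peak, and of 6 markers of other cell types 1 did, ALB. The mark over a locus measures no expression, so this does not check the cell type.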

How the data were processed

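The series has 4 CUT&Tag libraries, 2 per group, each from 100000 cells per the labels. No header says which libraries entered each column, so the values may not rest on all 4. The submitters' processing notes name hg38, DESeq, Bowtie2 and cutadapt; their versions, the peak caller and how duplicates were treated: not given in the sources used here. The authors deposited 1 table: log2 scaled reads per peak in 1 column per group, their log2 fold change, and p-values, unadjusted and adjusted. All differences are the first-listed minus the second-listed log2 column.

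Low log2 values (1.5 to 5.5) equal log2 of whole reads plus 1 constant per column (0 and −0.057) within 0.0051, so reads were recovered; those of deep peaks carry the rounding of the 2 decimals. Log2 ratios of reads and their exact intervals include both constants. Exact Clopper-Pearson and Wilson 95% intervals cover counting error only. Genes came from the annotated host for exons and introns and otherwise from the nearest gene, with symbols, lengths and promoter sequences from RefSeq GRCh38.p14 (532 of 533 nearest genes of chromosome 6 matched; the host was missing for 53 of 753 peaks in exons or introns).

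Genes named are, on each side, the 6 highest and 6 lowest peaks of at least median signal (1 per gene), the 4 nearest the boundary, the 4 with most peaks, and up to 3 of highest signal per list, without noncoding and unnamed genes. Results for 1 such gene are not reported here. The members and lists were chosen with earlier results of these data known. With 1 column per group no test was made. Scripts were tested on simulated data. Python 3.11.15, numpy 2.4.6, pandas 2.3.3, scipy 1.17.1 and matplotlib 3.10.9 were used.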

Additional observations from a re-analysis of the deposited data

How the results depend on the processing

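Each group has 1 column and no value per library, so no spread between libraries is known, a replicate could not be left out, and the center of all differences depends on the scaling between the columns. No paired analysis was possible because the columns carry no replicate numbers. The gap of 0.20 between the medians of the 2 sets was the same under either scaling, while scaling to equal reads in peaks put the medians at 0.086 and −0.11, and unscaled reads put the one above the boundary at −0.057, by the constant each subtracts. Among peaks of at least median signal the median above the boundary was 0.07, distal intergenic peaks made up 5.75% below and 24.3% above it, and promoters 30.9% above it. By class the medians were 0.135 and 0.08 for promoters (gap 0.055), 0.27 and 0.055 for introns, and 0.06 and −0.12 for distal intergenic peaks. Calls on chromosome 6 in the authors' deposited table numbered 1 with the adjusted p limit at 0.1, and 105 when the unadjusted p was held under 0.05, since looser limits admit more. In alternatives chosen after seeing the data, without JARID2 and ZFAND3 the gap was 0.14, and weighted to the makeup below the boundary it was 0.13. Also chosen then, up to 90 Mb beyond the boundary the median of the upper set was −0.04, and past that it was 0.11, which leaves a gap of 0.09. Apart from the scalings and these calls the cause was not tested. Of 20 list medians under alternatives 13 kept their sign and were within 0.1; by nearest gene, the neuronal list's medians were −0.0475 below and −0.045 above the boundary.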
